A study of Rattus norvegicus with 16 samples.

Results

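The comparison described here is that of dextran sodium sulfate (DSS) with no treatment in Pirc rats, across all genes on the array. Its members are 8 of the 16 arrays of the series, chosen by the genotype Pirc/+ and split by the treatment label into 4 DSS-treated rats (numbered 12, 16, 20 and 24) and 4 untreated rats (11, 15, 19 and 23). All were F1 offspring of an ACI by F344 cross, 97 days old at dissection and heterozygous for Pirc, the mutant allele of the tumor suppressor gene Apc in this rat model. No wildtype animal stands among these 8. The treated rats drank 4% DSS in 2 courses, on days 40 to 47 and 54 to 61, so that 36 days without DSS lay between the end of treatment and sampling. Each array holds the total RNA of the normal distal colon of 1 rat, labelled with Cy3. The remaining 8 arrays, of 4 untreated and 4 DSS-treated wildtype rats of the same cross, give the values set beside those of the Pirc rats. They also enter the statistical fit, so every SE and adjusted p rests on the spread within all 16 arrays.

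DSS is a sulfated polysaccharide that injures the colonic epithelium when it is drunk. Neutrophils and macrophages then enter the mucosa, the matrix is remodelled, and the epithelial sheet is rebuilt from the crypts and, at the anal end, next to a stratified squamous epithelium. Apc holds beta-catenin, the effector of Wnt signalling, in check, and rats that carry the Pirc allele develop colonic adenomas. Since a piece of tissue holds many kinds of cells, fewer cells of a type and less RNA per cell cannot be told apart in any of the values that follow.

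Levels are given as log2 of the array signal minus the array's own 75th percentile, so that a level of 0 is the 75th percentile of the array, and changes are DSS-treated minus untreated rats on this scale. Between 71.1% and 80.3% of the spots of the 8 arrays were well above background. The 8 arrays lay on 2 slides with 2 rats of each group on each slide, and each group filled 1 array column, so column and treatment cannot be told apart. Markers of the labelled tissue were detected. Detection alone does not tell gut tissues apart, since 12 of 13 measured small intestinal enterocyte markers were well above background on all 8 arrays. The transcripts of Slc26a3, the chloride and bicarbonate exchanger of the colonic surface, Krt20 and Vil1 of surface epithelium, Tff3 and Spdef of goblet cells and Hoxb13 and Hoxd13 of the hindgut were well above background on all 8 arrays. Correlations between arrays lay between 0.985 and 0.992 for pairs of untreated rats, between 0.983 and 0.99 for pairs of DSS-treated rats, and between 0.965 and 0.98 across the groups.

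A gene was called where its adjusted p was 0.05 or less and its change at least a factor of 2. By this rule 1407 of 15159 named genes were called, or 9.28%, with 1051 higher after DSS (6.93% of all genes) and 356 lower (2.35%). Counts of called list members in what follows are to be read against these shares. Before 1 probe was kept for each gene, 2265 of 30367 probes were called (7.46%), 1672 higher (5.51%) and 593 lower (1.95%). The 4 treated rats lay above all 4 untreated rats for 10.3% of the genes and below them for 10.1%. All 1051 rises and all 356 falls had the same direction on both slides. Since these genes were chosen on the same arrays, this agreement and the medians within slides are not a replication. The median change was 2.04 within one slide and 1.97 within the other for the rises, and -1.38 and -1.26 for the falls. The median over all 15159 genes was 0.02. Of the called probes 73.8% were rises, against 63.2% under quantile normalization. The DSS-treated rats varied more among themselves than the untreated rats in 71.1% of the rises and 77.5% of the falls, against 64.6% of the genes not called.

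Among the largest rises were transcripts of stratified squamous epithelium, of neutrophil attraction and of the Paneth cell, the defensin-secreting cell of the small intestinal crypt. Lgals7, a galectin of stratified epithelia, rose by the most among genes well above background on all 8 arrays. Its level was -3.08, -5.22, -4.52 and -4.79 in untreated rats 11, 15, 19 and 23 and 3.94, 4.38, 5.90 and 5.29 in DSS-treated rats 12, 16, 20 and 24 (log2 change 9.28, SE 1.64, adjusted p = 0.00173). Every DSS-treated rat stood above the 75th percentile of its array and every untreated rat far below it. Next came Krt6c, Crabp2, Sprr3, Krt4, Cxcl2, Defa6, Csta, Krt23, Krt15, Prss27, Stfa3, Tac1, Krt14 and Mmp7, the last with a change of 5.79. The groups did not overlap for any of these 15, as was required of them. The rise of Stfa3 (6.02, adjusted p = 0.0417) was not stable, since its call was lost when any of 12 of the 16 rats was left out.

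**Figure D1:**
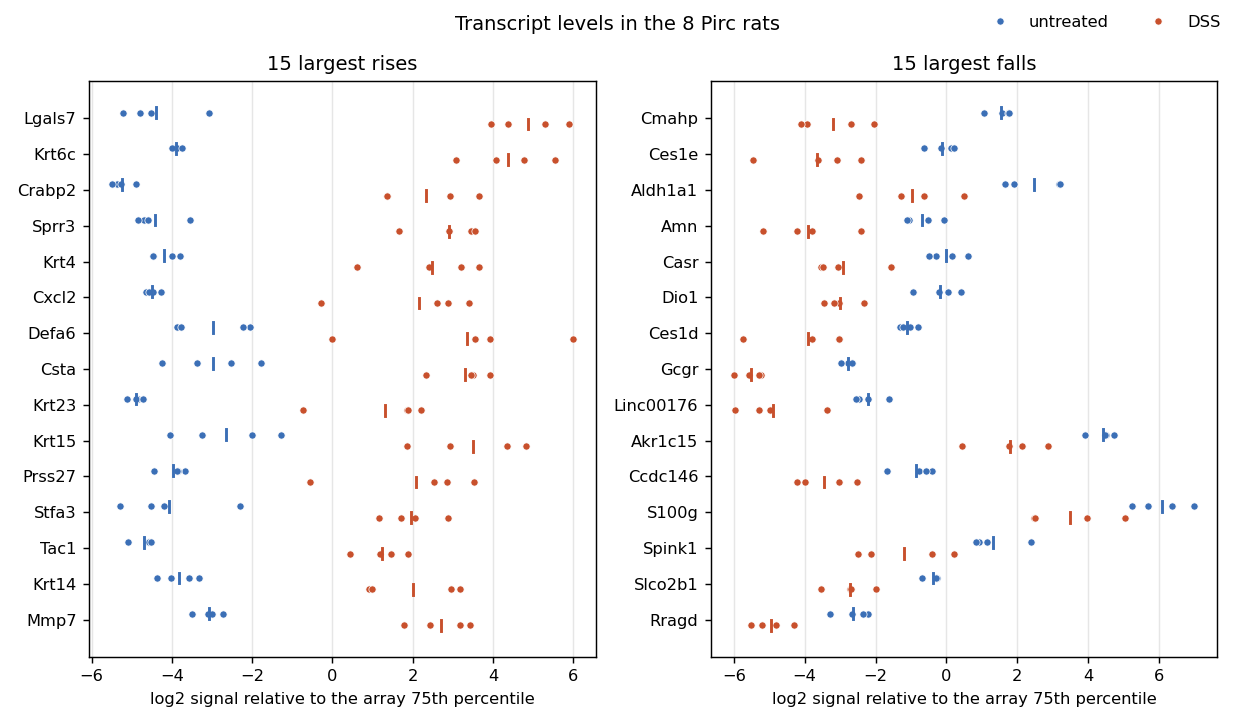
Log2 signal relative to the array 75th percentile (horizontal axis) of the 15 genes with the largest rise (left) and the 15 with the largest fall (right) in the 8 Pirc rats. Each point is a rat, blue for untreated and red for DSS-treated, and the vertical bars are group means; the groups do not overlap for any gene shown, a condition of the choice, and Lgals7 heads the rises with a change of 9.28 and Cmahp the falls with -4.74.

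The transcripts of stratified squamous epithelium, the layered lining of skin, esophagus and anal canal, were enhanced as a group. Of 16 measured markers 12 were called higher and 0 lower, with a median change of 5.99 against 0.02 over all genes. Krt13, the keratin of the upper layers of moist squamous epithelia, had the largest change of any gene. Its probe gave -5.67, -5.03, -7.25 and -8.15 in the untreated rats, of which 3 were well above background, and 2.41, 3.98, 5.04 and 4.55 after DSS (log2 change 10.52, SE 1.69, adjusted p = 0.000925). The basal-layer keratins Krt5 and Krt14 rose by 5.05 and 5.84 (adjusted p = 0.00285 and 0.00287), so the keratins of both the basal and the upper layers were among the rises. Krt4, the partner of Krt13, rose from -3.79, -4.004, -4.48 and -4.48 to 0.62, 2.41, 3.66 and 3.21 (log2 change 6.66, SE 0.93, adjusted p = 0.000378), lowest among the DSS-treated rats in rat 12. For Krt17, a keratin of injured and regenerating epithelium, no untreated rat had a signal well above background while all 4 DSS-treated rats did, and the level was at least 333-fold higher (adjusted p = 0.000479). By the same reckoning, which sets the treated rats against the lowest signal measurable on the untreated arrays, Calml3, a calmodulin-like protein of epithelia, was at least 204-fold higher and Krt16 at least 46.6-fold higher. Sprr3, a precursor of the cornified envelope, the toughened shell of the outermost cells, rose by 7.31 (SE 1.16), and Scel, sciellin, was at least 137-fold higher in the treated rats. The exceptions were Tp63, the master transcription factor of these epithelia, with a change of 0.00 (SE 0.15, adjusted p = 0.998) although well above background on all 8 arrays, and Ivl (0.53), Serpinb5 (0.34) and Dsc3 (1.20), which did not pass the test.

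Summed over the 16 markers, the log2 level ran from 2.33 to 2.57 in untreated and 4.52 to 6.80 in DSS-treated rats. The median change of the list was 4.24 on the slide of rats 11, 12, 15 and 16 and 7.31 on that of rats 19, 20, 23 and 24. It was 3.77, with 11 of the 16 called, under an alternative that corrected the background by the normexp method and then normalized by quantiles, 2 changes made together and here named normexp with quantile normalization. The urothelial markers moved too, with 4 of 5 called higher (Upk1a 3.44, Upk3a 1.58, Upk1b 1.13 and Gata3, at least 1.98-fold higher), and 2 under normexp with quantile normalization, while Upk2, a defining uroplakin, was not well above background on any of the 8 arrays. The part of neighbouring tissue in these rises was not tested. Keratins are a family of close relatives, and whether each probe reads only its own gene was not tested either.

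Promoter windows were read for 11 of the 15 largest rises and 12 of the 15 largest falls from RefSeq, build GRCr8, each of 300 bases with 250 before and 50 after the annotated start. Both strands were searched for TGANTCA, the AP-1 pattern, GGGANNTTC, a kappaB-like pattern, and CAAAGNNCA, an HNF4-like pattern, where N is any base. The AP-1 pattern was found in 2 of 11 rises (18.2%) and 0 of 12 falls, and in 7.33% of all 27457 promoters. The kappaB-like pattern was found in 1 rise and 0 falls, against 3.93% of all promoters. Other forms of the kappaB pattern were not searched, so a window without a match may hold one. The Cxcl2 window holds ggggatttcc, which the searched pattern does not match. One rise and 1 fall held the HNF4-like pattern, against 5.86% of all. The windows of the 2 rises with the AP-1 pattern, Krt4 on the minus strand at chr7:134930664-134930963 and Mmp7 on the plus strand at chr8:13132793-13133092, and of Krt23, on the minus strand at chr10:84946880-84947179, are shown because they hold the matches among the rises. Capitals mark the AP-1 pattern in the first and second and the kappaB-like pattern in the third.
Krt4: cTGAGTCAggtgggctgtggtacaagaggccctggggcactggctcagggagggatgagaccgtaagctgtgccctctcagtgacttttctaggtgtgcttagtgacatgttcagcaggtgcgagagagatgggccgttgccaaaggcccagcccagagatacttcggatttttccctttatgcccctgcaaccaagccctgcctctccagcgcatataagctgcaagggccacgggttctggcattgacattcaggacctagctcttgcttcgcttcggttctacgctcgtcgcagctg
Mmp7: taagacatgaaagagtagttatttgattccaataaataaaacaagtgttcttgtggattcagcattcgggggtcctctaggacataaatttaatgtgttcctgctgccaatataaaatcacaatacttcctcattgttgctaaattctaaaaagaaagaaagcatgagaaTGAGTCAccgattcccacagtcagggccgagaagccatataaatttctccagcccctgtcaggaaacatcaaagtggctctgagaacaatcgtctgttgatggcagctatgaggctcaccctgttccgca
Krt23: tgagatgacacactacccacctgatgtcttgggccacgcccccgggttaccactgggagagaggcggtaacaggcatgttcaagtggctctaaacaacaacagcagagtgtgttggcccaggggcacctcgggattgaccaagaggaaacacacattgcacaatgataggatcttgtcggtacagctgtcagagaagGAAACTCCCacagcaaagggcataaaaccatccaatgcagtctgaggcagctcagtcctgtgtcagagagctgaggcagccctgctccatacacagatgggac
These matches describe letters in a window and not the binding of a factor.

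Transcripts that draw and activate neutrophils had the largest median change of the 26 pathway lists. Of 16 measured chemokines and members of the interleukin 1 family 11 were called higher and 0 lower (median 3.65). Cxcl2, a chemokine that attracts neutrophils, was at -4.28, -4.47, -4.64 and -4.56 in the untreated rats and at -0.28, 2.89, 3.41 and 2.60 in the treated ones (log2 change 6.64, SE 1.17, adjusted p = 0.00167). Cxcl1, its close relative, gave -4.89, -6.01, -5.77 and -4.39 in untreated and -1.60, 1.14, 1.30 and 1.05 in treated rats (log2 change 5.73, SE 0.70, adjusted p = 0.000178). For both chemokines rat 12 was the lowest of the DSS-treated rats, yet it lay above every untreated rat. The cytokines Il1a and Il1b rose by 5.06 and 4.80 (SE 0.76 and 0.89), and the decoy receptor Il1r2, which binds interleukin 1 without signalling, by 3.27. Il36b and Il36g, interleukin 1 relatives made by keratinocytes, were at least 7.29-fold and 6.56-fold higher. Cxcr2, the receptor of these chemokines on neutrophils, rose by 2.44 (adjusted p = 0.0016). Il18, an interleukin 1 relative that the colonic epithelium makes at rest, went the other way, by -0.92 (adjusted p = 0.0074), which is less than a factor of 2, and Il33 had 0.13 (adjusted p = 0.853). The median of the list was 1.20 under normexp with quantile normalization, with 9 of 16 called.

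Among 21 measured cytokines and members of the NF-kappaB and STAT3 pathways 9 were called higher and 0 lower (6 higher under normexp with quantile normalization), and their median was 0.56. Tnf rose from -3.99, -4.91, -4.45 and -3.30 to -1.85, 0.62, -0.11 and 0.44 (log2 change 3.94, SE 0.52, adjusted p = 0.000275) and its receptor Tnfrsf1b by 3.55. All 4 treated rats were above all 4 untreated rats for Tnf. Il23a, a subunit of interleukin 23, rose by 4.46, and Il17a, a product of the T cells which that cytokine maintains, was at least 4.37-fold higher (adjusted p = 0.0048). Il10, the cytokine that restrains such responses, was at least 12.3-fold higher (adjusted p = 0.000237), with all 4 treated and none of the untreated rats well above background. Il22, which drives epithelial repair, was well above background in 2 treated rats and in no untreated rat (at least 2.55-fold higher, adjusted p = 0.000414). Socs3, a feedback inhibitor that STAT3 induces, rose by 1.60, whereas Stat3 itself had a change of 0.56 (adjusted p = 0.0138), under a factor of 2. Of the NF-kappaB subunits and inhibitors measured, Nfkb2 had 0.02 and Nfkbia 0.35, and neither passed. Il17f, a relative of Il17a, passed the test but was not well above background on any of the 8 arrays, and Il6 was not well above background on any of the 8 arrays.

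The epithelial defence genes rose in part. Of 21 measured, 11 were called higher and 0 lower (median 1.31). S100a8 and S100a9 encode the 2 subunits of calprotectin, which starves microbes of metal ions. S100a8 was at -1.75, -1.62, -1.80 and -1.54 in untreated and 1.39, 3.78, 3.52 and 2.94 in treated rats (log2 change 4.58, SE 0.61, adjusted p = 0.000277), and S100a9 rose by 3.95. Both are also abundant in neutrophils. Defb4, a beta-defensin of inflamed epithelia, was at least 76.5-fold higher (adjusted p = 0.00366). The enzymes that make hydrogen peroxide and superoxide at the epithelial surface rose by less, with 2.64 for Nox1, 2.10 for the maturation factor Duoxa2, 1.42 for Duox2 and 1.31 for the nitric oxide synthase Nos2. Slpi (0.45), Pigr (-0.68) and Reg3g (-0.01) did not pass, and Reg3g was not well above background on any of the 8 arrays. Under normexp with quantile normalization 7 of the 21 were called, with a median of 0.43.

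Most Paneth cell products were enhanced in the colon of the DSS-treated Pirc rats, with 8 of 12 measured markers called higher and 1 lower (median 4.21). Under normexp with quantile normalization 7 were called higher and 1 lower, with a median of 2.499. The log2 level summed over the 12 markers ran from 6.90 to 7.41 in untreated and 7.27 to 8.40 in treated rats. The summed signal thus overlapped between the groups. Mmp7, the protease that activates pro-defensins in mice, was at -3.50, -3.10, -2.999 and -2.74 in the untreated rats and at 1.78, 3.17, 3.43 and 2.43 in the treated ones (log2 change 5.79, SE 0.47, adjusted p = 3.32e-05). The secreted phospholipase Pla2g2a rose by 4.44 and the lysozyme gene Lyz2, which macrophages also express, by 3.66. The alpha-defensin Defa6, a close relative that the list did not hold, ran from -3.87, -2.05, -3.78 and -2.23 to 3.92, -0.02, 5.99 and 3.56 (log2 change 6.34, SE 0.93, adjusted p = 0.000527). Rat 16 had the lowest level among the treated rats and rat 20 the highest. Defa8, Defa9 and RatNP-3b, members of the list from the same family, rose by 5.04, 5.01 and 4.86, with rat 16 lowest and rat 20 highest for each of them too. Np4 was at least 5.87-fold higher. Defa5 was not well above background on any array and Defa11 on 1 untreated and 2 treated arrays. Habp2 was at least 6.96-fold higher, measured in 3 of the 4 treated rats. The marker called lower was Itln1, intelectin 1, which goblet cells make as well (-1.32, adjusted p = 0.0227, a call lost without any of rats 12, 16 and 19). Alpha-defensins resemble each other closely in sequence, and the specificity of the probes was not tested. Genes of enterocytes of the small intestine, the organ in which Paneth cells normally lie, had a median change of -0.08. Summed over the 13 measured, the log2 level ran from 2.48 to 3.13 in untreated and 2.835 to 4.20 in treated rats. The largest change was 1.60, and up to 2 genes were called higher with a rat left out. In the full fit 0 were called higher and 3 lower. These 3 were Amn (-3.21), Fabp6 (-1.71) and Apob (-1.05, a call lost without rats 15 or 20).

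Complement, the cascade of plasma proteins that tags and lyses microbes, was enhanced in 11 of 18 measured genes with 0 lower (median 1.80). Under normexp with quantile normalization 8 were called higher, with a median of 0.98. C1s, a protease of the first step, was at -6.20, -5.97, -4.99 and -5.29 and -2.16, -2.02, -2.38 and -1.93 in untreated and treated rats (log2 change 3.49, SE 0.51, adjusted p = 0.000533), and C3, the central component, rose by 3.15 (SE 0.45). The inhibitor Serping1 rose by 2.39 and the receptor C5ar1 by 3.07. C2 (0.04), Cfi (0.57) and Cfp (0.49) did not pass.

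Markers of white blood cells rose to unequal extents. Of 17 macrophage markers 11 were called higher and 0 lower (median 1.61), among them Cd68 (log2 change 1.87, SE 0.25, adjusted p = 0.000259), Tyrobp (1.90), Aif1 (1.69) and Ctsk (2.07). The untreated rats had Cd68 at -3.62, -3.58, -3.35 and -3.50 and the treated rats at -2.17, -1.20, -1.57 and -1.65, without overlap. Csf1r, the receptor that macrophages depend on, had 0.22 (adjusted p = 0.691) and Cd14 -0.28 (adjusted p = 0.45). Of 13 neutrophil markers 5 were called higher and 0 lower, S100a8, S100a9, Cxcr2 and Mmp9 among them, and the granule proteins Elane and Ngp were not well above background on any of the 8 arrays. For B and plasma cells 6 of 11 were called higher and 0 lower (median 1.45), led by Tnfrsf17, the survival receptor of plasma cells (3.28), Igll1 (2.98) and the coactivator Pou2af1 (2.29, SE 0.32). Only 3 of the 11 were well above background on all 8 arrays. Summed over the 11, the log2 level ran from 2.71 to 2.925 in untreated and 2.52 to 2.81 in treated rats. The summed signal therefore did not rise. T and natural killer cell markers stood apart from the macrophage, neutrophil and B cell lists, with 1 of 18 called higher and 0 lower. That 1 was Cd2, well above background on 2 treated arrays and no untreated one, and the median was 0.25. Cd3d had 0.27, Cd4 0.22 and Lck -0.18, and none of the 3 passed. Under normexp with quantile normalization the medians were 0.69 for macrophages, 0.34 for neutrophils and 0.36 for B and plasma cells, with 7, 2 and 2 called higher. Of 5 red blood cell markers 0 were called, with a median of 1.83, and Hbb ran from 3.46, 1.04, 1.22 and 3.11 in the untreated to 2.79, 5.84, 4.23 and 5.14 in the treated rats (adjusted p = 0.0977).

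Antigen presentation and interferon genes moved little as groups. The MHC class II genes RT1-Da (1.39), RT1-Db1 (1.51), RT1-Bb (1.13) and the invariant chain Cd74 (1.34) were called higher, 4 of 13 on that list with 0 lower. Of 24 interferon response genes 5 were called higher and 0 lower (median 0.43), against 3 higher under normexp with quantile normalization. Gbp2, a guanylate-binding protein, rose from -4.07, -4.03, -3.60 and -2.77 to -1.45, 0.16, -0.42 and -0.90 (log2 change 2.96, SE 0.40, adjusted p = 0.0003), whereas Tap1 (-0.08) and Psmb8 (-0.10) did not pass. Left out one at a time, rats 11, 15, 19 and 20 each reduced the interferon calls to 3.

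Connective tissue transcripts were enhanced. Of 17 genes of fibroblasts and matrix 16 were called higher and 0 lower, with a median of 1.99. The calls number 8 without rat 15 and 9 without rat 11 or rat 16, and 9 also under normexp with quantile normalization (median 1.02) or with a common floor. Dcn, decorin, a proteoglycan of collagen fibrils, was at -5.12, -4.81, -3.94 and -4.37 in untreated and -1.10, -0.22, -1.30 and -1.04 in treated rats (log2 change 3.64, SE 0.59, adjusted p = 0.00102). The chain genes Col1a1 and Col3a1 of fibrillar collagen rose by 2.53 and 1.79, Fn1, fibronectin, by 2.08 and Sparc by 2.61. Rat 16 had the highest median of this list among the treated rats and rat 20 the lowest. Tnc, tenascin C, a matrix protein of wounds, rose by 2.81. Postn, periostin, did not pass (0.80, adjusted p = 0.266).

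Of 20 matrix metalloproteinases and inhibitors 10 were called higher and 0 lower (median 1.90, 0.56 under normexp with quantile normalization, with 6 called). Beside Mmp7, these included the gelatinase Mmp2 (2.55), the macrophage elastase Mmp12 (3.02), the collagenase Mmp13 (2.64) and the stromelysin Mmp10 (at least 8.32-fold higher, in 3 treated rats). The inhibitors Timp1 (0.60), Timp2 (-0.22) and Timp3 (0.26) did not pass, and Timp4 had -0.87 (adjusted p = 0.0198), under a factor of 2. Plau, an activator of plasminogen, rose by 2.19. Summed over the 20 genes of that list, the log2 level ran from 6.71 to 7.24 in untreated and 6.80 to 7.18 in treated rats. The summed signal of the list therefore did not rise. Tgfb1, the main inducer of matrix synthesis, rose by 2.82 (SE 0.22) with 2 of the 4 untreated arrays well above background, and 5 of 24 genes of TGF-beta and BMP signalling were called higher and 0 lower, against 0 higher and 1 lower under normexp with quantile normalization. Endothelial markers rose in 7 of 11 cases with 0 lower (median 1.53, 0.23 under normexp with quantile normalization, with 3 called), among them Pecam1 (1.50), Kdr, the receptor of vascular growth factor (1.60), and Plvap (1.53), while Cdh5 had 0.18 (adjusted p = 0.703) and the called Tie1 was well above background on 0 untreated and 0 treated arrays. Smooth muscle did not rise as a list, with 1 of 13 higher (Tpm2, 3.51) and 1 lower (Des, desmin, -1.87). Acta2, the actin of smooth muscle and activated fibroblasts, had 0.34 (adjusted p = 0.524). On the list of fat and mesothelial markers 4 of 9 were called higher and 0 lower (Adipoq 1.98, Cfd 2.34, Krt7 1.82 and Msln 3.15). Cfd is on the complement list as well. Summed over the 9, the log2 level ran from 6.48 to 7.02 in untreated and 6.70 to 6.91 in treated rats, so it did not rise. The call of Msln was lost without any of rats 11, 16, 19 and 20.

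**Figure D2:**
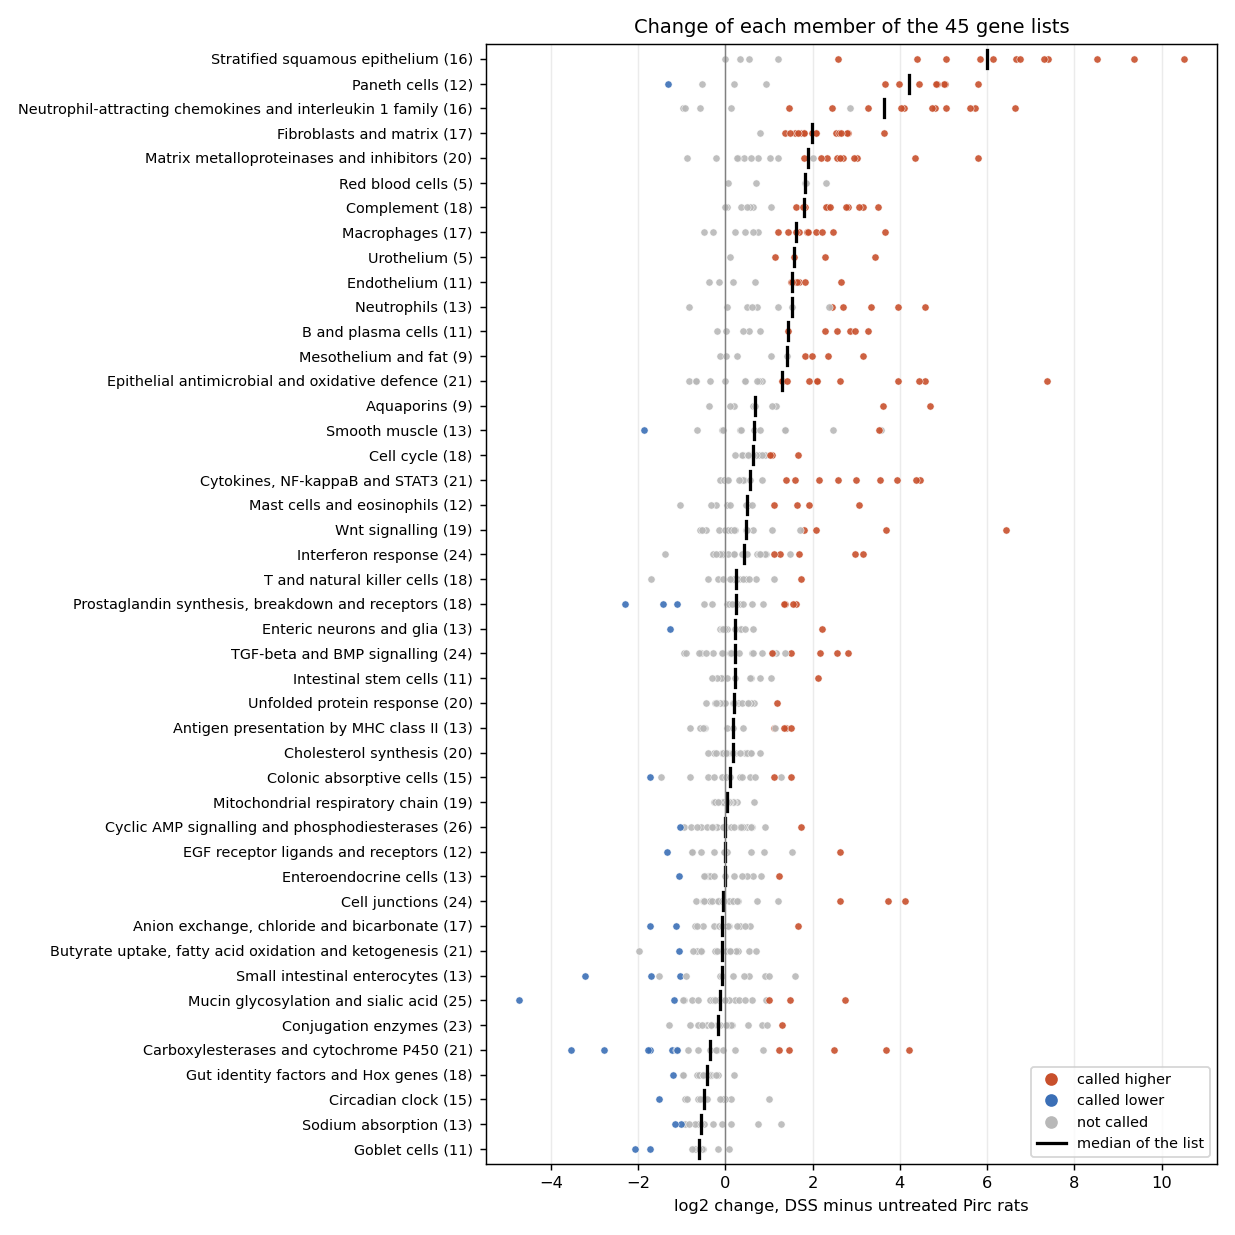
Log2 change with DSS in Pirc rats (horizontal axis) of every measured member of 45 gene lists, with the number of members in brackets. Red points were called higher, blue points lower and grey points neither, and the black bar is the median of the list; the lists run from stratified squamous epithelium at the top, with a median of 5.99, to goblet cells at the bottom, with -0.61.

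The falls were fewer and smaller than the rises, and several were enzymes and transporters of the colonic epithelium. Cmahp, the rat counterpart of the gene for the enzyme that hydroxylates sialic acid, fell by the most. Its level was 1.57, 1.75, 1.07 and 1.76 in the untreated rats and -3.95, -2.06, -4.11 and -2.69 in the treated ones (log2 change -4.74, SE 0.53, adjusted p = 0.000126). Ces1e and Ces1d, carboxylesterases that cleave esters and lipids, changed by -3.53 and -2.79, and rat 16 was the lowest of the treated rats for both. For Aldh1a1, which makes retinoic acid from retinal, the untreated rats gave 3.18, 3.20, 1.90 and 1.64 and the treated rats -1.28, -2.46, -0.63 and 0.49 (log2 change -3.45, SE 0.71, adjusted p = 0.0045), and the fall was -5.06 on one slide against -1.84 on the other. Amn, the anchor of the cobalamin receptor, changed by -3.21, Casr, the calcium-sensing receptor, by -2.90, and Dio1, a deiodinase of thyroid hormone, by -2.82 (SE 0.49, 0.46 and 0.29). The glucagon receptor Gcgr had the narrowest spread among these falls, at -2.78, -2.67, -2.98 and -2.67 against -5.56, -5.25, -5.997 and -5.29 (log2 change -2.74, SE 0.21, adjusted p = 2.54e-05). S100g, the calcium-binding calbindin of absorptive cells, went from 6.35, 5.68, 5.24 and 6.99 to 2.46, 3.97, 2.49 and 5.05 (log2 change -2.58, SE 0.61, adjusted p = 0.0107). Rats 12 and 20 had the lowest S100g, and all 4 treated rats lay below all 4 untreated rats. The other falls among the 15 largest were Linc00176, the aldo-keto reductase gene Akr1c15, Ccdc146, the trypsin inhibitor gene Spink1, the organic anion transporter gene Slco2b1 and Rragd, between -2.69 and -2.33.

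Some falls reached background. Il12a, a subunit of interleukin 12, was well above background in all 4 untreated and in no treated rat, at least 3.46-fold lower (adjusted p = 9.06e-05). On the same measure Gpr37 was at least 3.26-fold, Olr35 at least 2.95-fold, Dydc2 at least 2.74-fold and Spata22 at least 2.63-fold lower. All 5 were dim in the untreated rats too. On the side of the rises the corresponding largest bounds were those of Prss22, a serine protease of epithelia (at least 427-fold higher), Krt17, Calml3, Scel and Cxcl17, a mucosal chemokine (at least 108-fold higher).

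The carboxylesterase and cytochrome P450 list split. Of 21 measured genes 7 were called lower and 5 higher. The 4 genes of the Ces1 cluster on the list were called lower (Ces1c -1.72 and Ces1f -1.78 beside those above), although cluster genes are close copies and the specificity of their probes was not tested. Cyp2d4 (-1.23), Cyp2j4 (-1.14) and Cyp27a1 (-1.11) were lower as well. The rises were Cyp26b1, which degrades retinoic acid (at least 7.53-fold higher, adjusted p = 0.00494), Cyp1a1 and Cyp1b1, targets of the aryl hydrocarbon receptor (at least 3.14-fold and 2.03-fold higher, 3 treated rats each), Cyp2s1 (1.46) and Ces2c (1.22). Retinoid genes thus went in different directions, with the synthetic enzyme Aldh1a1 lower and the binding protein Crabp2 higher, from -4.89, -5.38, -5.49 and -5.26 to 1.36, 1.35, 3.66 and 2.92 (log2 change 7.58, SE 1.09, adjusted p = 0.000464). The number of falls on the list was 3 without rat 11 and 4 without rat 15 or rat 20, and the number of rises was 3 without rat 11, 19, 20 or 23 and 2 under normexp with quantile normalization. Of 23 conjugation enzymes 1 was called, Nqo1 (higher, 1.29).

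Most markers of the mature colonic epithelium were not called. Of 15 measured markers of absorptive cells 2 were called higher (Ceacam1 1.50 and Emp1 1.11) and 1 lower, with a median of 0.11. The one that fell was Slc26a3, from 4.27, 4.003, 2.73 and 3.46 to 1.98, 2.10, 1.24 and 2.25 (log2 change -1.72, SE 0.32, adjusted p = 0.00268). Krt20 had 0.03 and Vil1 0.11 (SE 0.25 and 0.14). The median of the list changed sign to -0.22 without rat 16, and neither rise was called without rat 20. Goblet cell markers lay lower as a list, with a median of -0.61 (-0.71 under normexp with quantile normalization), yet only 2 of 11 were called, both lower. Clca1, a protein secreted with mucus, was at 6.19, 5.59, 5.80 and 4.97 in untreated and 3.38, 3.59, 2.60 and 4.72 in treated rats (log2 change -2.07, SE 0.40, adjusted p = 0.00325), and Rep15, a goblet cell Rab15 partner, fell by 1.72 on the log2 scale. The trefoil peptide Tff3 (-0.51), Zg16 (-0.61) and Fcgbp (-0.66) did not pass, and Spdef, the factor that specifies goblet cells, had 0.07 (SE 0.14). Among genes of mucin glycosylation and sialic acid 3 of 25 were called higher, among them St3gal4 (2.73), and 2 lower, Cmahp and St6galnac1 (-1.17). The sialyltransferase St6galnac1 is a goblet cell enzyme of the colon.

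Genes of salt absorption changed in a few members. Sgk1, the kinase that aldosterone induces, fell from 2.17, 2.01, 1.84 and 1.84 to 0.48, 1.58, 0.21 and 0.93 (log2 change -1.17, SE 0.23, adjusted p = 0.00362, a call lost without rat 20), and Nr3c2, the aldosterone receptor, changed by -1.01 (adjusted p = 0.000521), just past a factor of 2 and under it without any of rats 11, 15, 19 and 20. These were the 2 of 13 sodium absorption genes called lower, with 0 higher and a list median of -0.55. The sodium channel genes Scnn1a (-0.63), Scnn1b (-0.49) and Scnn1g (-0.92) did not pass. Among 17 genes of anion transport the chloride channel gene Ano1 fell (-1.14, lost without any of rats 11, 16, 19 and 20) beside Slc26a3, and Clca4 rose (1.67). Aqp3, a water and glycerol channel, rose from 0.94, 0.15, 1.43 and 2.27 to 4.93, 4.65, 5.05 and 4.61 (log2 change 3.61, SE 0.70, adjusted p = 0.00311), and Aqp9 was at least 13.1-fold higher. The 7 other aquaporins measured were not called. Of 21 genes of butyrate uptake, fatty acid oxidation and ketogenesis 1 was called, Ehhadh (-1.06), and its call was lost without any of rats 11, 12, 15, 19 and 20.

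**Figure D3:**
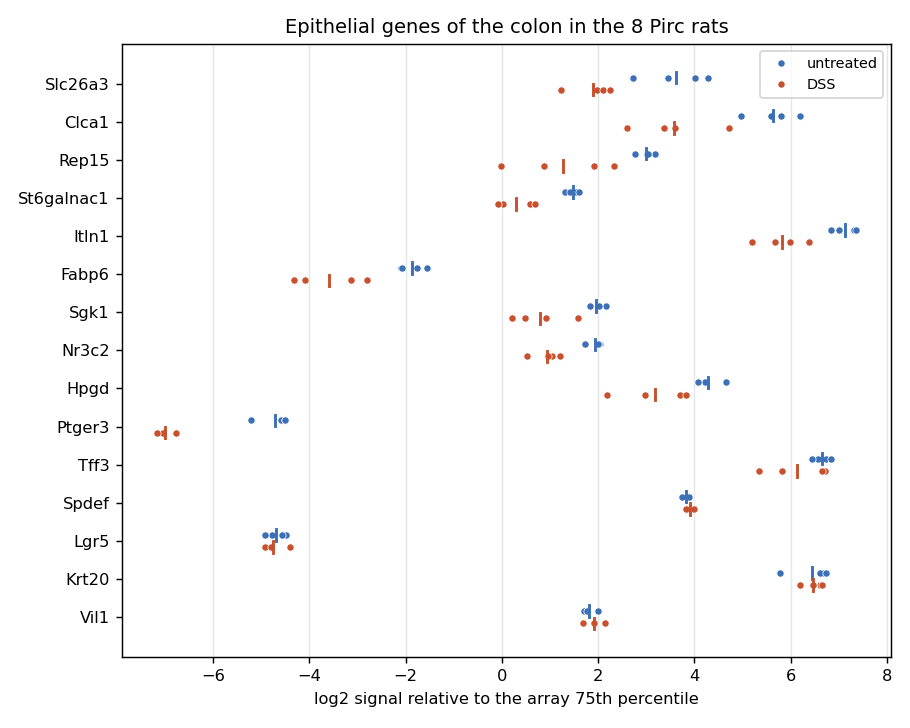
Log2 signal relative to the array 75th percentile (horizontal axis) of 15 epithelial genes of the colon in the 8 Pirc rats. Each point is a rat, blue for untreated and red for DSS-treated, and the vertical bars are group means; Slc26a3, Clca1, Itln1 and Ptger3 lie lower in all 4 treated rats, while Spdef, Lgr5, Krt20 and Vil1 overlap between the groups.

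The prostaglandin list moved in both directions, with 4 of 18 called higher and 3 lower. The rises numbered 0 under normexp with quantile normalization and 1 with a common floor for dim probes, with 1 and 3 falls. Ptges, the inducible synthase of prostaglandin E2, rose from -4.41, -4.27, -4.62 and -4.48 to -2.89, -2.94, -2.82 and -3.65 (log2 change 1.37, SE 0.26, adjusted p = 0.00274), and Hpgds, which makes prostaglandin D2, by 1.33. Ptgs2, the inducible cyclooxygenase, had 1.63 (adjusted p = 0.0272) with only 1 untreated and 2 treated arrays well above background, and its call was lost without any of rats 11, 15, 20 and 23. Hpgd, which breaks prostaglandin E2 down, fell by 1.12 on the log2 scale (SE 0.28, lost without rat 20 or rat 23). The receptor Ptger3 was at -4.58, -4.51, -4.51 and -5.22 in untreated and -6.77, -7.06, -7.03 and -7.16 in treated rats (log2 change -2.30, SE 0.20, adjusted p = 4.7e-05). Only 1 treated rat had Ptger3 well above background, and both of its probes gave a fall. Ptger4, the other main receptor of the colonic mucosa, had -0.48 (adjusted p = 0.252).

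Apc, the gene that carries the Pirc allele, was lower after DSS by less than a factor of 2. The untreated rats had -3.09, -3.40, -3.12 and -3.30 and the treated rats -3.64, -3.84, -4.08 and -3.70 (log2 change -0.59, SE 0.15, adjusted p = 0.0173), without overlap and with the same sign on both slides (-0.50 and -0.68). The adjusted p was above 0.05 without rat 11, 19 or 20 and in a fit of the Pirc arrays alone, at most 0.0625. Whether the probe tells the mutant from the wildtype transcript was not tested. Of 19 Wnt pathway genes 4 were called higher and 0 lower. Under normexp with quantile normalization 2 were called. The 4 were the ligands Wnt4 (log2 change 3.68, SE 0.61, adjusted p = 0.00115), Wnt5a (2.08, a call lost without rat 15) and Wnt10a (at least 24.2-fold higher) and the transcription factor Lef1 (at least 2.15-fold higher, in 3 treated rats). Wnt4 gave -5.92, -6.35, -5.45 and -5.99 in the untreated and -3.51, -2.80, -0.94 and -1.76 in the treated rats. Stem cell and Wnt target genes did not move as a list, with 1 of 11 called (Olfm4, at least 1.3-fold higher, with rat 20 at -9.21 against -6.24 to -5.65 in the other treated rats). The call of Olfm4 was lost without any of rats 11, 12, 15, 16, 19 and 24, under normexp with quantile normalization and with either floor. Lgr5, the stem cell marker, had -0.07 (SE 0.21), and Axin2, a target of beta-catenin, 0.55 (adjusted p = 0.0476). All 18 cell cycle genes measured had a change above 0, from 0.23 to 1.67, and 3 were called higher (Rrm2 1.67, Ccna2 1.08 and Birc5 1.03). Relative to the mean of the untreated rats, the median of the 18 was 1.06, 0.38, 1.12 and 0.11 in rats 12, 16, 20 and 24. The untreated rats ran from -0.38 to 0.27, so rat 24 lay within their range. The median of that list was 1.18 within the array row of rats 11, 12, 19 and 20 and 0.09 within the row of the other 4. Only Rrm2 stayed called whichever rat was left out. Of 12 receptors and ligands of the EGF family Nrg1, neuregulin, was called higher (log2 change 2.63, SE 0.38, adjusted p = 0.00048) and Btc lower (-1.33, a call lost without any of 8 rats).

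Pde4b, which degrades cyclic AMP, rose by 1.73 (adjusted p = 0.00269) from -7.96, -8.25, -6.94 and -8.39 to -6.04, -6.13, -5.78 and -6.67, but only 1 untreated and 3 treated arrays were well above background, and the call was lost under normexp with quantile normalization and with a floor for dim probes. Of the other phosphodiesterase and cyclic AMP genes, 26 in all, Pde7a was called lower (-1.04, though its second probe had -0.55 with adjusted p = 0.434), and Pde4d had 0.51 and Pde4a 0.12 without passing. Other neuronal, endocrine and structural genes called were few. Sst, somatostatin, was lower (-1.07, lost without any of 5 rats), Cpe higher (1.24), Uchl1 higher (2.21) and Ret lower (-1.26, with 1 of its 3 probes at -0.47 and not called). Of 24 cell junction genes 3 were called higher and 0 lower, the connexins Gja1 (3.73) and Gjb2 (2.63) and the claudin Cldn1 (at least 13.2-fold higher). The shares called on the cell junction (12.5%), stem cell (9.09%) and cyclic AMP (7.69%) lists lay near the 9.28% of all genes. Mcpt1, a mast cell protease, rose by 3.06, as 1 of 4 of 12 mast cell and eosinophil genes called (1 under normexp with quantile normalization). Among 18 factors of gut identity and Hox genes 1 was called, the bile acid receptor Nr1h4 (lower, -1.21), and among 15 clock genes 1, Npas2 (lower, -1.52, though its second probe had -0.09). The list medians were -0.43 for gut identity and Hox genes and -0.48 for clock genes.

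No gene of the respiratory chain or of cholesterol synthesis passed. None of 19 respiratory chain genes (0) and none of 20 cholesterol synthesis genes (0) was called, with medians of 0.04 and 0.16, at an unadjusted p under 0.05 for 2 and 5 of them. In the unfolded protein response 1 of 20 was called, the stress sensor Atf6 (higher, 1.19, its second probe 0.93).

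The treated rats differed in which lists moved most. Relative to the mean of the untreated rats, the median of the 1051 rises was 1.62, 2.20, 2.19 and 2.02 in rats 12, 16, 20 and 24, and that of the 356 falls -1.41, -1.29, -1.68 and -0.93. Rat 20 had the largest rises in squamous epithelium (7.13, against 4.63 in rat 12) and Paneth cells (5.12), and the lowest goblet cell median (-1.31). Rat 16 led the fibroblast and matrix list (2.77) and had a goblet cell median of -0.14. In absorptive cells rat 16 stood at 1.12 and rat 20 at -0.41. B and plasma cell markers were highest in rat 12 (2.44) and lowest in rat 20 (0.65). Macrophage and endothelial markers were more even, from 1.39 to 1.87 and from 1.33 to 1.58 over the 4 rats.

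**Figure D4:**
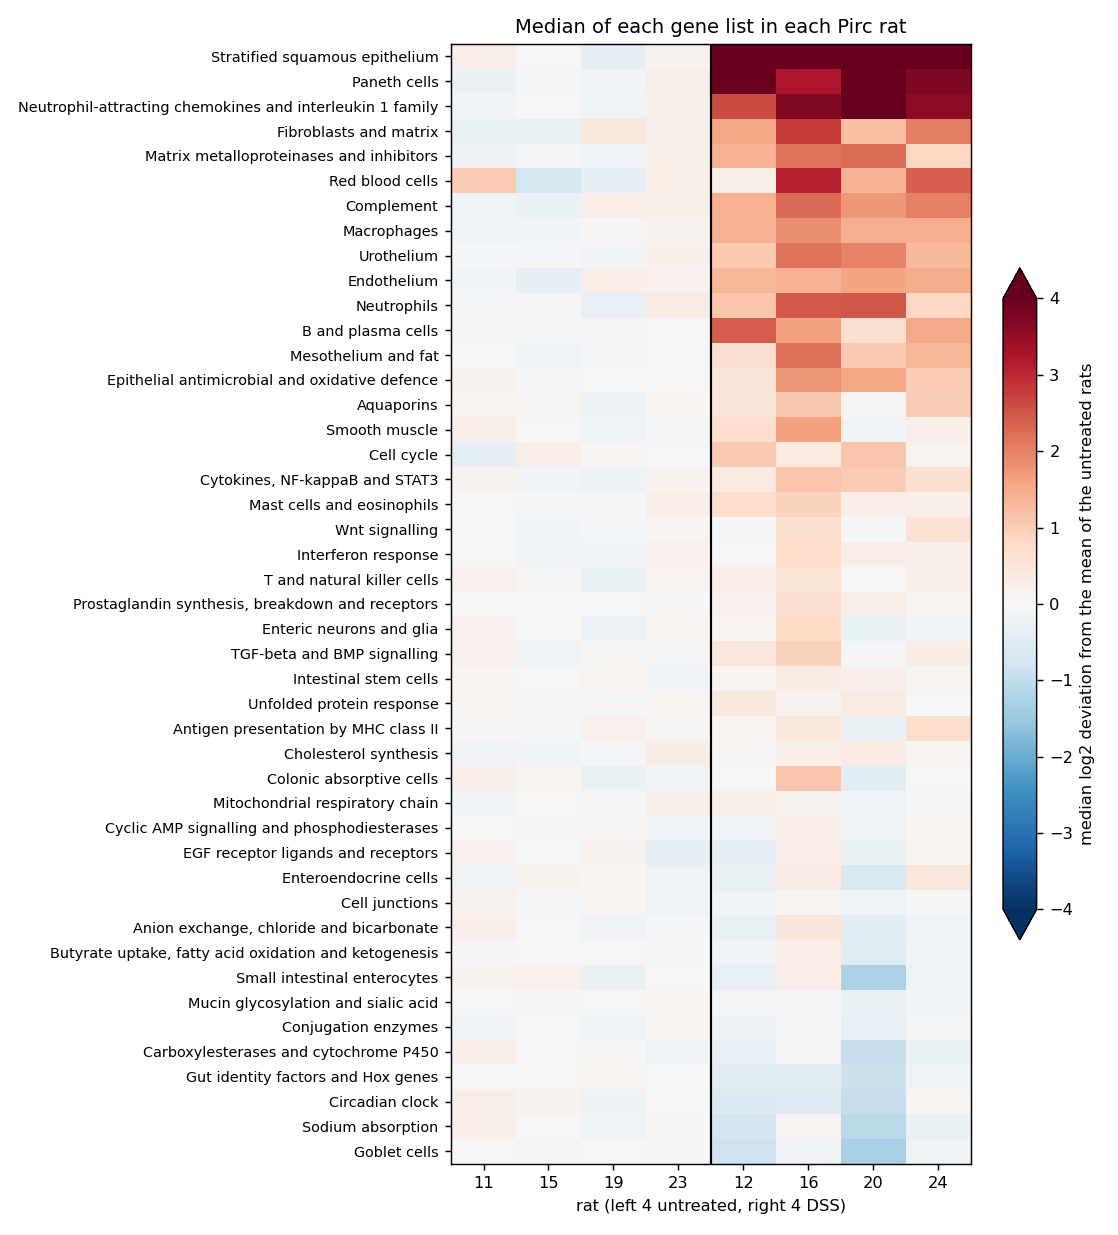
Median log2 deviation from the mean of the 4 untreated Pirc rats (colour, red above and blue below, values beyond 4 shown as 4) of each of 45 gene lists (rows) in each of the 8 Pirc rats (columns, untreated left of the line). The squamous, Paneth cell and chemokine lists are red in all 4 treated rats, and the goblet cell list is palest in rats 16 and 24 and darkest blue in rat 20.

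In wildtype rats 719 probes were called higher with DSS (2.37%) and 122 lower (0.402%), and 562 genes in all (3.71% of those tested). Of these genes, 450 were called in the same direction in Pirc rats, which is 80.1% of the wildtype calls and 32% of the Pirc calls, and 2 were called in opposite directions. Such overlaps do not show where the 2 genotypes differ, which a test of the difference between the changes addressed. It called 13 probes (0.0428% of all) and 9 genes, 0.0594% of those tested. All 9 rose in Pirc rats, and 4 of them were alpha-defensins. Tac1, which encodes the neuropeptide substance P, gave the smallest p. It was at -4.61, -5.09, -4.56 and -4.53 in untreated and 0.43, 1.89, 1.45 and 1.18 in treated Pirc rats (log2 change 5.93, SE 0.26, adjusted p = 2.11e-08), and changed by -0.23 in wildtype rats, where 5 of 8 arrays were well above background, a difference of 6.16 (SE 0.36, adjusted p = 1.61e-06). Its other probe rose by 4.95. Of 13 enteric neuron and glia markers Uchl1 was called higher and Ret lower, and Vip (0.45) and Snap25 (0.23) did not pass. Tbxt, the mesodermal factor brachyury, was at -7.28, -5.62, -5.46 and -6.84 in untreated and -1.81, -2.15, 0.67 and -0.70 in treated Pirc rats (log2 change 5.30). No wildtype array had Tbxt well above background, so its wildtype change has no measured size, although the difference passed the test (adjusted p = 0.0178). Slc30a2, a zinc transporter of secretory cells that Paneth cells use, rose by 2.94 and had -1.44 in wildtype rats, where 4 untreated and 1 treated array were well above background (difference 4.39, adjusted p = 0.00377). Tifa, an adaptor between microbial sugar sensing and NF-kappaB, differed by 2.57 (adjusted p = 0.0243). Rpl39l1 also passed (adjusted p = 0.0178) but was well above background only in 3 treated Pirc rats, where it was at least 1.79-fold higher than in untreated Pirc rats.

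The 4 defensins rose in Pirc rats, and Defa8 and Defa9 were called lower in wildtype rats. Defa8 changed by 5.04 in Pirc and -4.58 in wildtype rats, of which 4 untreated and 2 treated ones were well above background (difference 9.62, SE 0.89, adjusted p = 0.000375), and Defa9 by 5.01 and -2.57 (adjusted p = 0.018 in wildtype rats). The wildtype changes of RatNP-3b (-2.23, adjusted p = 0.0581) and Defa6 (adjusted p = 0.122, with no treated wildtype array well above background) did not pass, while their differences between genotypes did (adjusted p = 0.00377 and 0.0178). Mmp7 and Pla2g2a of the Paneth list had changes of the same sign in both genotypes, Mmp7 at 5.79 and 2.73 and Pla2g2a at 4.44 and 2.57, and their differences were not called (adjusted p = 0.119 and 0.273). The squamous keratin Krt15 had 6.14 and 1.15, a difference that did not pass (adjusted p = 0.289). Krt13 and Cxcl2 were not well above background in any untreated wildtype rat, and their differences did not pass either. Among the falls, Cmahp had -4.74 and -3.77 and Ces1e -3.53 and -2.81 in Pirc and wildtype rats, whereas Casr had -2.90 and -0.30, Amn -3.21 and -0.58 and Slc26a3 -1.72 and 0.24. The differences of Casr, Amn and Slc26a3 did not pass (adjusted p = 0.199, 0.222 and 0.149). Without rat 12 the number of probes with a called difference grew from 13 to 63, and without rat 11 or wildtype rat 25 it was 8, so this count depends on single animals.

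**Figure D5:**
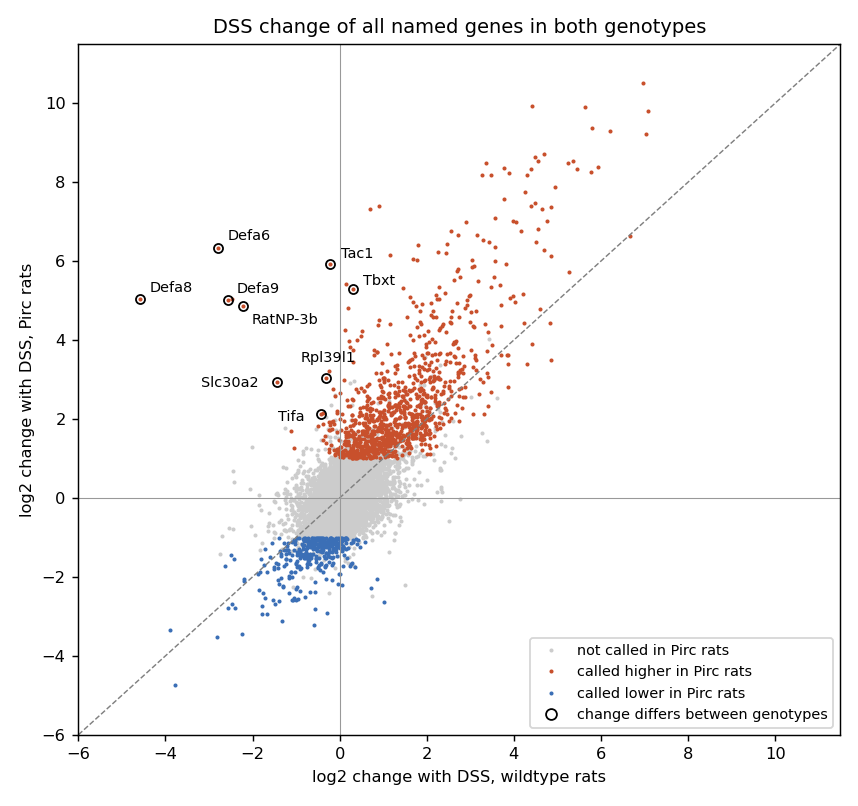
Log2 change with DSS in wildtype rats (horizontal axis) and in Pirc rats (vertical axis) of the 15159 genes, coloured by their call in Pirc rats, with the line of equal change dashed. Circles mark the 9 genes whose change differed between the genotypes by the test of the difference; the 4 alpha-defensins among them, Defa6, Defa8, Defa9 and RatNP-3b, lie below 0 on the wildtype axis and above 4 on the Pirc axis, and Tbxt and Rpl39l1 were not well above background on any wildtype array.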

How the data were processed

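Total RNA of the normal distal colon of 16 rats was hybridised to 1-colour Agilent arrays. The authors deposited scanner output made with Agilent Feature Extraction 10.7.3.1, per the file headers, and the background-subtracted intensity of each spot was used here. The submitters' processing notes name Partek. Control spots and flagged outlier spots were left out, log2 intensity was set relative to the 75th percentile of each array, and spots of 1 probe were averaged. Of 30367 probes 18006 were matched by accession to 15159 RefSeq gene symbols, and 12361 stayed unnamed. limma 3.58.1 (lmFit and eBayes, R 4.3.3) was fitted to all 16 arrays with 1 mean per group, with Benjamini-Hochberg adjusted p over all probes; every adjusted p in the text is from this fit. A call needed adjusted p of 0.05 or less and a factor of 2. Each gene is given by its probe of highest mean level.

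Genes were named by rule: the 15 largest rises and falls that were well above background on all 8 Pirc arrays without overlap between the groups, the 5 largest bounds in each direction, members of the gene lists, Pde4b and Apc, and genes called for the difference between genotypes. The members and lists were chosen with earlier results of these data known. A gene not above background in 1 group has only a bound, the brighter mean over the lowest signal measurable on the dim arrays. Each array stands for 1 rat per the labels, and each group mean rests on 4 arrays. An exact test of 4 against 4 rats cannot go below 0.0286. SE and adjusted p come from 1 spread per probe shared by the 4 groups, not from the spread of the Pirc rats alone. A fit of the Pirc arrays alone called 1955 probes, 1882 of them shared with the 2265 of the main fit. Alternatives covered normalization, background, filters, blocks, moderation, thresholds and each rat left out; a common floor was added after seeing the data. The fit was tested on simulated data. Some members of the lists are not reported here by name.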

Additional observations from a re-analysis of the deposited data

Results flagged for a closer look

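Over 148 genes, 296 groups of values from 4 Pirc rats were checked for 1 rat far from the other 3. Such a rat was found in 18 of the 296, where 14.8 are expected since chance alone marks about 1 group in 20. Not all genes given above were among the 148. For untreated rat 15 the gene and its log2 level were Atf6 (0.0417) and Tac1 (-5.08). For DSS-treated rat 24 the gene and its log2 level were Atf6 (0.81) and Ptges (-3.65). For untreated rat 23 the gene and its log2 level were C3 (-4.94), Nr3c2 (1.72), Ptger3 (-5.22), S100a9 (0.41) and Slco2b1 (-0.68). For untreated rat 19 the gene and its log2 level were Ccr3 (-9.69), Nr1h4 (1.86) and Pla2g4a (-3.72). For DSS-treated rat 12 the gene and its log2 level were Cxcl1 (-1.60), Gpr37 (-8.81), Krt23 (-0.74) and Scel (-2.10). For DSS-treated rat 20 the gene and its log2 level was Olfm4 (-9.21). For untreated rat 11 the gene and its log2 level was RatNP-3b (-2.15).

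The test of the difference between genotypes passed for 9 genes. On the log2 scale the change with DSS in Pirc rats exceeded that in wildtype rats by 9.13 for Defa6, 9.62 for Defa8, 7.57 for Defa9, 7.09 for RatNP-3b, 3.34 for Rpl39l1, 4.39 for Slc30a2, 6.16 for Tac1, 5.003 for Tbxt and 2.57 for Tifa. Tbxt and Rpl39l1 were not well above background on any wildtype array and Defa6 on no treated wildtype array, so their values are set against background signal.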

How the results depend on the processing

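The alternatives were followed gene by gene for 148 genes. These were the genes of the rules above, with list members limited to those called with the largest changes. None (0) of the 148 changed direction under any alternative, and other genes given above were not followed in this way. Counted over genes and settings, 3810 values stayed on the same side of the adjusted p threshold and 162 no longer passed it. The count of 2265 called probes in Pirc rats was 992 with normexp background correction and quantile normalization together (972 of them shared with the 2265), against 2273 with quantile normalization alone, 4451 with no minimum change and 1408 where the probes of a gene were averaged, which tests fewer features. In wildtype rats the count of 841 was 238 with normexp and quantile normalization, 399 with a common floor and 284 at an adjusted p of 0.01. The 13 differences between genotypes became 26 with normexp and quantile normalization, 20 with a filter on dim probes, 24 with a common floor, 8 without moderation and 8 at an adjusted p of 0.01. Apart from those of averaged probes, no minimum change and stricter p, which follow from construction, the cause was not tested. With each rat left out in turn the counts ran from 1799 (without rat 20) to 2555 (without rat 24) in Pirc rats, from 375 (without rat 14) to 1178 (without rat 26) in wildtype rats, and from 8 (without rat 11 or 25) to 63 (without rat 12) for the difference. The wildtype count was also 446, 456 and 503 without rats 18, 17 and 21, and the difference 27, 27, 25 and 35 without rats 16, 22, 24 and 26. Quantile normalization moved the share of rises in wildtype rats from 85.5% to 72.6%. No paired analysis was possible because the rats' numbers differ between all groups. Probes near background have bounds rather than sizes.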
